A study of Homo sapiens with 2 samples.

Results

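The 8 SMAD genes and the 2 SMURF ubiquitin ligase genes were taken by their gene names from 2 RNA sequencing libraries of A549, a cell line established from a human lung adenocarcinoma. All 10 genes had a value in both libraries, out of 18786 gene symbols that did. One library came from cells with stable retroviral transduction of ATOH8, a gene for a transcription factor of the basic helix-loop-helix family. The other came from cells with stable transduction of the retroviral vector. Both lines were grown in the same serum-containing medium, so both had been through retroviral transduction and both saw serum. The labels do not give the promoter that drove ATOH8 or whether each line was a pool or 1 clone. With 1 library per group there is no spread between replicates, so the differences below are between these 2 libraries and carry no error and no test.

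SMAD proteins carry signals of the TGF-beta family from the cell surface to the nucleus. Type I receptors phosphorylate the receptor-regulated SMADs at their last serines: SMAD2 and SMAD3 after TGF-beta or activin, and SMAD1, SMAD5 and SMAD9 after bone morphogenetic proteins (BMP). These then bind the common partner SMAD4 and act on genes, while the inhibitory SMAD6 and SMAD7 block the receptors and the SMURF ligases mark SMADs and receptors for degradation. In epithelial cells of the lung, TGF-beta signalling is known for growth arrest and for the epithelial-mesenchymal transition. In endothelial cells, ATOH8 is itself known as a gene that BMP signalling switches on through SMAD1 and SMAD5.

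The classes compared below differ at the end of the coding sequence, where receptor-regulated SMADs carry the serines that receptors phosphorylate. The following are the last 30 coding bases before the stop codon of each SMAD gene's principal GENCODE 29 transcript (GRCh38), 5′ to 3′, with the last 12 in capitals because they encode that tail in the receptor-regulated genes.
SMAD2 (chr18:47841830-47841859, minus strand): tccccttcagtgcgttgcTCAAGCATGTCA
SMAD3 (chr15:67190504-67190533, plus strand): tccccaagcatccgctgtTCCAGTGTGTCT
SMAD1 (chr4:145557902-145557931, plus strand): tcacctcataatcctattTCATCTGTATCT
SMAD5 (chr5:136177448-136177477, plus strand): tcccctctgaaccccataTCTTCTGTTTCA
SMAD9 (chr13:36848679-36848708, minus strand): tctccacataaccccattTCTTCAGTGTCT
SMAD4 (chr18:51078435-51078464, plus strand): atgccgattgcagacccaCAACCTTTAGAC
SMAD6 (chr15:66781503-66781532, plus strand): tggctggagatcctcctcAACAACCCCAGA
SMAD7 (chr18:48921375-48921404, minus strand): tgctggctagaggtcatcTTCAACAGCCGG
The 3 BMP-regulated genes shared 21 to 23 of 30 bases in each pair, and SMAD2 and SMAD3 shared 18. Across the 2 arms, 11 to 18 of 30 bases matched, with 18 between SMAD3 and SMAD9. Between these 5 genes and the inhibitory pair, 6 to 10 of 30 bases matched, and SMAD6 and SMAD7 matched each other at 13. SMAD4 matched the other SMADs at 5 to 8 bases.

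ATOH8 was at 182 FPKM (fragments per kilobase of transcript, scaled to library size) in the ATOH8 library and at 0.786 FPKM in the vector library, with transgene and endogenous transcripts counted together. Of 6 epithelial markers, 5 were at 1 FPKM or more in both libraries, with sums of 5840 FPKM in the ATOH8 and 5849 FPKM in the vector library. Single markers differed both ways within that sum: CDH1 was at 54.1 FPKM in the ATOH8 and 15.4 FPKM in the vector library, KRT7 at 1469.97 and 965 FPKM, and KRT18 at 2012 and 2486 FPKM. KRT19 was below 1 FPKM in both, at 0.07 and 0.219 FPKM. No endothelial, fibroblast or alveolar type 2 marker, of 4 each, reached 1 FPKM in either library. Of 4 haematopoietic markers PTPRC was at 0.0111 FPKM in the ATOH8 library and unlisted in the vector library, CD3E was unlisted in both, and CD68, a lysosomal protein that is not limited to blood cells, was at 15.4 FPKM in the ATOH8 and 2.14 FPKM in the vector library. Fold values below are log2(ATOH8 FPKM + 1) minus log2(vector FPKM + 1). The median log2 fold was -0.30 over the 12342 genes that averaged 1 FPKM or more, and -0.36 over those that averaged 5 FPKM or more. Values called relative to the median gene have -0.36 subtracted. FPKM are set per unit of RNA, so in these bulk libraries fewer expressing cells and less RNA per cell cannot be told apart.

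The TGF-beta arm was the most abundant part of the family, and its 2 members went opposite ways. SMAD3 was at 66.1 FPKM in the ATOH8 library and at 44.8 FPKM in the vector library. SMAD2 was at 28.4 FPKM in the ATOH8 library and at 49.6 FPKM in the vector library. SMAD3 was thus the most abundant of the 10 genes in the ATOH8 library, and SMAD2 in the vector library. The log2 folds were 0.55 for SMAD3 and -0.78 for SMAD2. Their summed level was nearly the same in both libraries, at 94.6 FPKM in the ATOH8 and 94.4 FPKM in the vector library. The ratio of SMAD3 to SMAD2 was 2.33 in the ATOH8 library, against 0.904 in the vector library, 2.57 times as large. This ratio is taken within each library and so does not move with the scaling between libraries. It is not corrected for base composition. The log2 folds of SMAD3 and SMAD2 were 1.33 apart as deposited and 0.62 apart after the correction given below.

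The BMP arm was less abundant, and both of its well-expressed members were lower in the ATOH8 library. SMAD5 was at 6.33 FPKM in the ATOH8 and 11.3 FPKM in the vector library. SMAD1 was at 2.61 FPKM in the ATOH8 and 6.11 FPKM in the vector library. Their log2 folds were -0.75 and -0.98. The remaining member, SMAD9, which encodes the protein called SMAD8, was at 0.182 FPKM in the ATOH8 and 0.0647 FPKM in the vector library. It stayed below the minimum mean of 1 FPKM, and no fold is given for it. The 3 genes summed to 9.12 FPKM in the ATOH8 and 17.5 FPKM in the vector library, a ratio of 0.522. The TGF-beta arm exceeded the BMP arm 10.4 times in the ATOH8 library, against 5.41 times in the vector library. This ratio is not corrected for base composition. After the correction given below, SMAD1 stood at -0.05 and SMAD5 at 0.29.

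SMAD4, the partner of both arms, was at 8.15 FPKM in the ATOH8 and 14.6 FPKM in the vector library, a log2 fold of -0.77. Its fold lay close to those of SMAD2 and SMAD5. Receptor-regulated SMADs together exceeded SMAD4 12.7 times in the ATOH8 library, against 7.64 times in the vector library. That ratio is likewise not corrected for base composition, and SMAD4 stood at 0.02 after the correction given below.

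The inhibitory SMADs also differed from each other. SMAD7, which occupies activated receptors of both arms and brings SMURF ligases to them, was at 14.1 FPKM in the ATOH8 and 8.74 FPKM in the vector library. SMAD6, which acts mainly on the BMP arm, was at 26.4 FPKM in the ATOH8 and 29.3 FPKM in the vector library. SMAD7 had the highest log2 fold of the 9 members above the minimum, at 0.63, and SMAD6 was close to level at -0.15. SMAD6 remained the more abundant of the pair. The ratio of SMAD7 to SMAD6 was 0.535 in the ATOH8 library, against 0.298 in the vector library, 1.79 times as large.

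The 2 SMURF genes encode closely related HECT-type ligases that bind SMADs through WW domains. SMURF1, first known for acting on SMAD1 and SMAD5, was at 10.3 FPKM in the ATOH8 and 8.44 FPKM in the vector library. SMURF2 was at 3.15 FPKM in the ATOH8 and 7.89 FPKM in the vector library. The pair stood almost level in the vector library, where the ratio of SMURF1 to SMURF2 was 1.07, and apart in the ATOH8 library, where it was 3.27. The log2 folds were 0.26 for SMURF1 and -1.10 for SMURF2, the lowest of the 9 members. These folds were 1.36 apart as deposited and 0.52 apart after the correction for base composition given below.

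**Figure D1:**
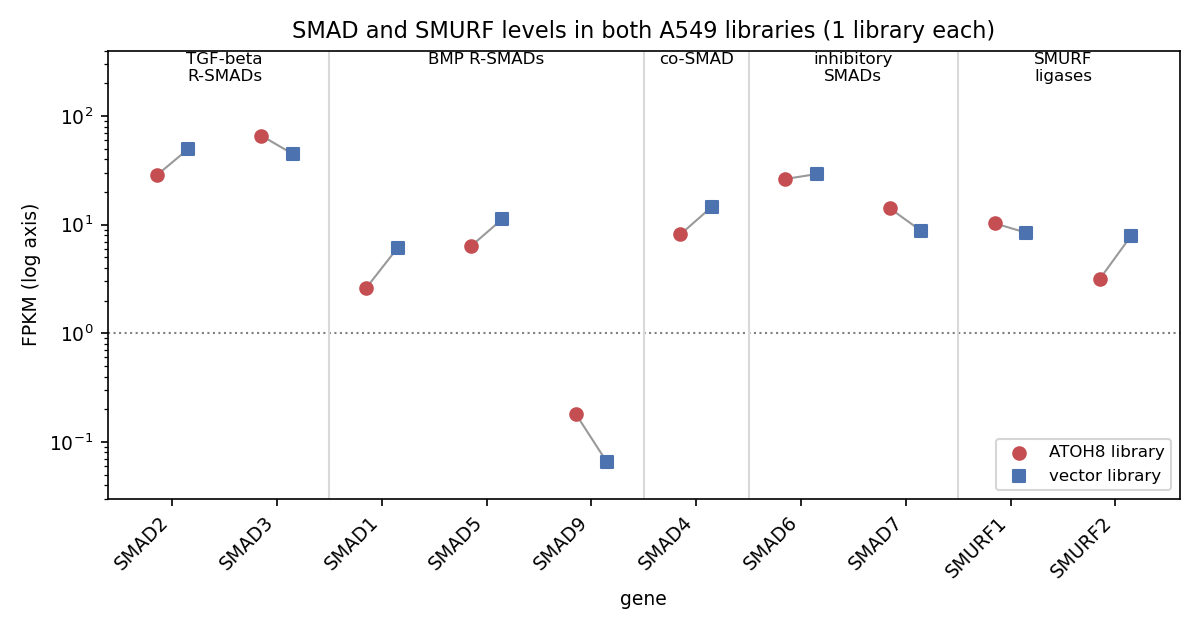
FPKM on a log axis of the 10 genes, grouped by class, in the ATOH8 library (circles, left) and the vector library (squares, right), 1 library each, with a dotted line at 1 FPKM. SMAD3, SMAD7, SMURF1 and, below 1 FPKM, SMAD9 are higher in the ATOH8 library, and the other 6 genes are lower.

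Set against all SMAD transcripts of the same library, the shift lay mainly between SMAD2 and SMAD3. The 8 SMAD genes summed to 152 FPKM in the ATOH8 and 165 FPKM in the vector library. SMAD3 made up 43.4% of that sum in the ATOH8 library, against 27.2% in the vector library, and SMAD2 18.7% and 30.1%. The TGF-beta-regulated pair together held 62.1% in the ATOH8 and 57.4% in the vector library. The BMP-regulated genes held 5.99% in the ATOH8 and 10.6% in the vector library, and SMAD4 5.35% and 8.90%. The inhibitory pair held 26.6% in the ATOH8 and 23.1% in the vector library, within which SMAD7 held 9.27% and 5.31% and SMAD6 17.3% and 17.8%. Inhibitory SMADs amounted to 0.390 of the receptor-regulated SMADs in ATOH8 cells and 0.340 in vector cells. Against the BMP-regulated SMADs alone they amounted to 4.44 times in the ATOH8 library, against 2.18 times in the vector library. None of these shares and ratios is corrected for base composition.

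**Figure D2:**
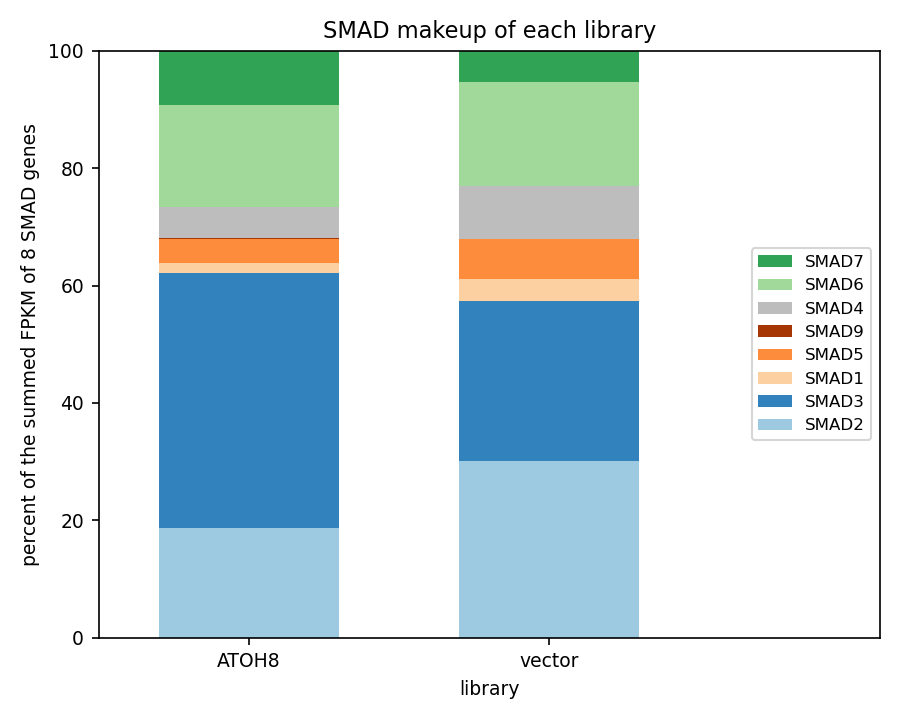
Each SMAD gene as a percent of the summed FPKM of the 8 SMAD genes, for the ATOH8 library (left bar) and the vector library (right bar). SMAD3 takes 43.4% of the ATOH8 bar and 27.2% of the vector bar, and SMAD9 is too thin to see in the vector bar.

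Few members differed by 2-fold between the libraries. With 9 members, the counts below cannot be told from the shares of all genes beside them. As deposited, 0 of the 9 members above the minimum were 2-fold higher or more, where 6.24% of all 12342 genes were. SMURF2 alone, 1 of 9, was 2-fold lower or more, where 19.0% of all genes were. SMAD1 stopped just short of that limit at a log2 fold of -0.98. The members' median log2 fold was -0.75 against -0.30 for all genes, with 3 members above 0 and 6 of 9 below, where 64.7% of all genes were below 0. Relative to the median gene, 0 members were 2-fold apart in either direction, where 12.8% of genes were higher and 9.46% lower, and SMAD7 came nearest at 0.99. On that scale SMAD6 changed sign, to 0.21, so that 4 members lay above and 5 below the median gene. The authors' deposited table, from their own comparison of the 2 libraries, marked SMAD1 and SMURF2 down and no other member. The authors' deposited table gave SMAD1 a log2 ratio of -1.23 with a q-value of 0.0361, and SMURF2 a log2 ratio of -1.32 with a q-value of 0.0311. Of the 18812 identifiers with a value in both libraries, 10.2% were marked down and 4.33% up in the authors' deposited table. Those q-values compare 2 libraries and not 2 conditions, and the sign of the log2 ratios is that of ATOH8 over vector, since it matches the FPKM of both genes.

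The members' folds moved with base composition. The 5 members with a GC content of 36.9% to 41.1% in their longest transcript, SMAD1, SMAD2, SMAD4, SMAD5 and SMURF2, were all lower in the ATOH8 library. Of the other 4, with 50.4% to 58.9%, SMAD3, SMURF1 and SMAD7 were higher and SMAD6 was close to level. Over the 9 members log2 fold and GC content had a Spearman correlation of 0.70 and a Pearson correlation of 0.85, a description over genes of the same 2 libraries. Over 12313 genes the Spearman correlation was 0.55, and decile medians of the log2 fold ran between -1.06 at the lowest and 0.27 at the highest GC content.

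**Figure D3:**
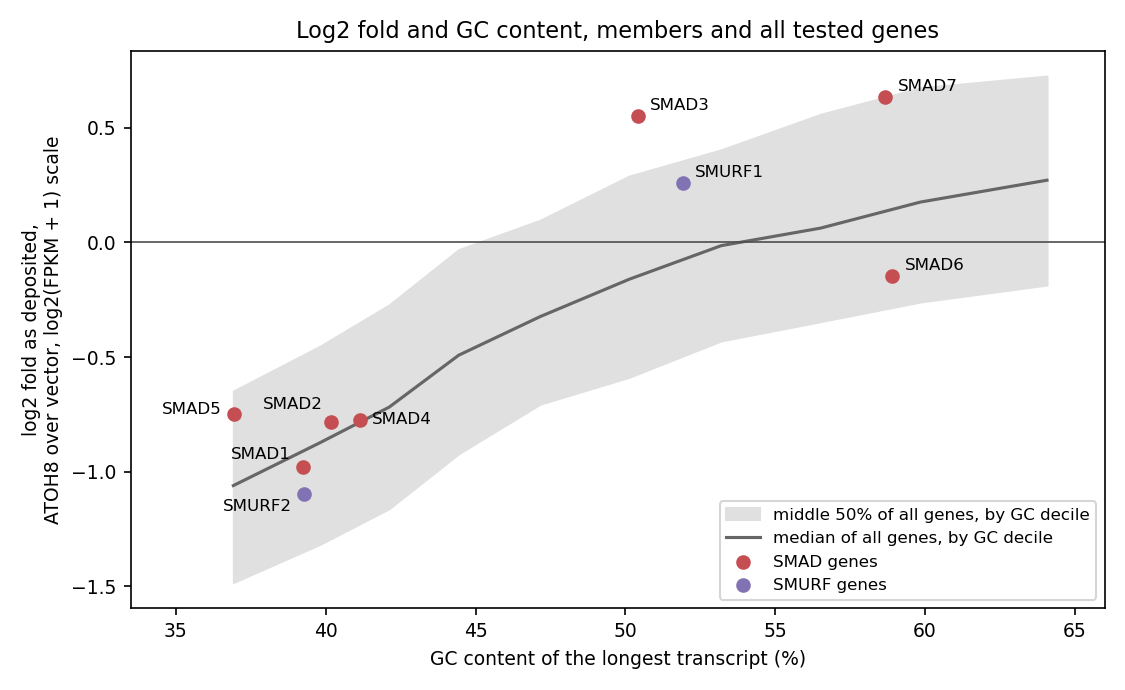
Log2 fold as deposited against GC content of the longest transcript, for the 9 members above the minimum (points) and for all tested genes (line for the median and band for the interquartile range, by GC decile). SMAD1, SMAD2, SMAD4, SMAD5 and SMURF2 lie inside the band at low GC content, SMAD3 lies above it at 50.4%, and SMAD6 and SMAD7 lie apart at nearly equal GC content.

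A curve of log2 fold on GC content was fitted over all genes and subtracted from each. After this correction, SMAD1 stood at -0.05, SMAD2 at 0.08, SMAD4 at 0.02 and SMURF2 at -0.18, each close to genes of the same GC content. SMAD5 stood at 0.29 and SMURF1 at 0.34. SMAD3 stood at 0.70 and SMAD7 at 0.49, the highest of the 9, and SMAD6 at -0.30, the lowest. No member was 2-fold apart on this scale, where 8.33% of genes were 2-fold higher and 5.94% lower. The members' median was 0.08, against 0.00 for all genes. With GC content taken over all transcripts of a gene, a setting added after the data were seen, SMAD1 stood at -0.48 and the other 8 moved by less, with SMAD3 at 0.58 and SMAD7 at 0.56.

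The contrasts within pairs differed in how far they were kept. SMAD6 and SMAD7 have nearly the same GC content, 58.9% and 58.7%, and their folds were 0.78 apart as deposited and 0.79 apart after the correction. SMAD3 (50.4% GC) and SMAD2 (40.2% GC, in an annotated transcript of 34526 bases) were 1.33 apart as deposited and 0.62 after it. SMURF1 (51.9% GC) and SMURF2 (39.3% GC) were 1.36 apart as deposited and 0.52 after it. Ratios between classes were not recomputed after the correction. The part that base composition played in each fold was not tested beyond this correction.

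**Figure D4:**
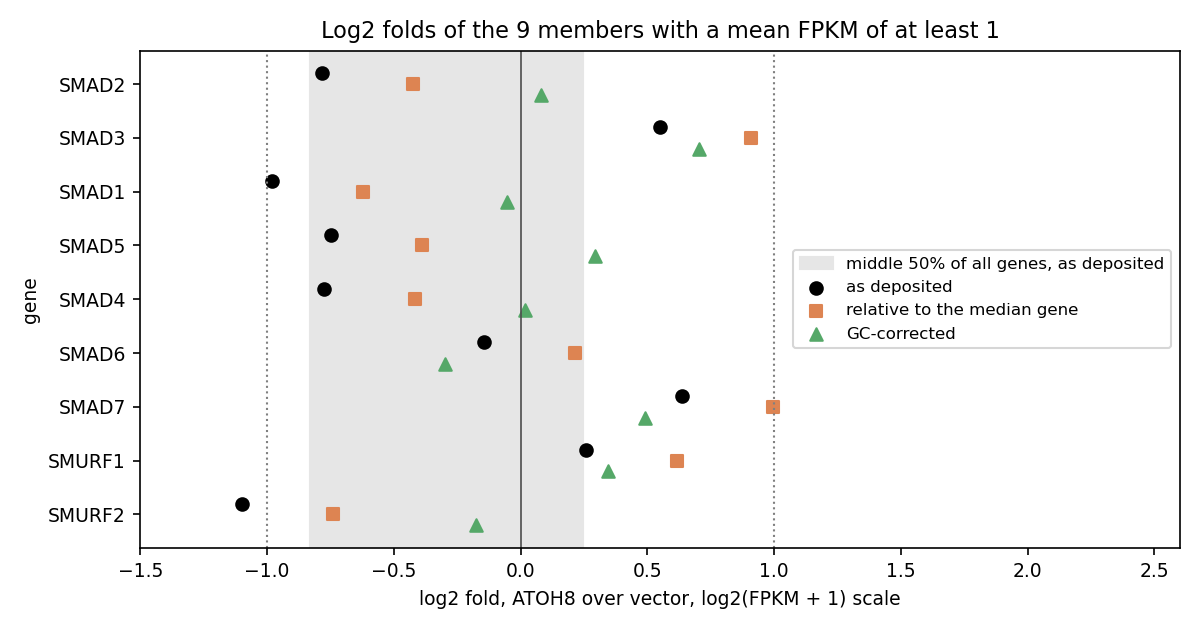
Log2 folds of ATOH8 over vector for the 9 members above the minimum, as deposited (circles), relative to the median gene (squares) and after GC correction (triangles), with dotted lines at 2-fold and a band for the interquartile range of all genes as deposited. SMAD3, SMAD7 and SMURF1 stay right of 0 on all 3 scales, SMAD1 and SMURF2 stay left of 0, and SMAD2, SMAD4 and SMAD5 are left of 0 on the first pair of scales and right of it after the GC correction.

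Several members share transcribed sequence with neighbours, and the strand setting of the authors' estimates is not given in the sources used here. SMURF1 (chromosome 7, 99027438 to 99144100, minus strand, GRCh38) overlaps exons of TRRAP, a histone acetyltransferase cofactor gene on the other strand, over 735 bases or 11.7% of its exonic length. TRRAP was at 7.43 FPKM in the ATOH8 and 9.69 FPKM in the vector library, the opposite direction to SMURF1. SMURF2 (chromosome 17, 64542295 to 64662068, minus strand) overlaps CEP95 over 167 bases or 2.40% of its exonic length, and CEP95 was at 7.90 FPKM in the ATOH8 and 13.3 FPKM in the vector library. SMAD4 (chromosome 18, 51028394 to 51085045, plus strand) shares 967 exonic bases with an overlapping coding gene on the same strand, at 0.328 FPKM in the ATOH8 and 0.0494 FPKM in the vector library, so reads there could be split. Antisense transcripts overlap 376 exonic bases of SMAD1, 182 of SMAD3 and 610 of SMAD5, which also holds 2 short non-coding RNAs on its own strand. SMAD2, SMAD6, SMAD7 and SMAD9 overlap no other gene's exons in GENCODE 29. The authors' locus for SMURF2 also took in DDX5, at 98.7 FPKM in the ATOH8 and 250 FPKM in the vector library. Their locus for SMAD4 also took in ELAC1, at 1.21 FPKM in the ATOH8 and 2.57 FPKM in the vector library. Neither overlaps the member in GENCODE 29, and any effect on the members' values was not tested.

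Since SMAD6 is known to be switched on by SMADs and SMAD3 had the largest share in the ATOH8 library, the 250 bases before their RefSeq start sites (GRCh38.p14) are given here. Both were chosen from the windows that hold at most 8 exonic bases. Capitals mark the letters GTCTAGAC, CAGAC and GGCGCC, the first pair known to be bound by SMAD3 and SMAD4 and the other a GC-rich element bound by SMADs of both arms. Both strands were searched.
SMAD3 (chr15:67065352-67065601, plus strand): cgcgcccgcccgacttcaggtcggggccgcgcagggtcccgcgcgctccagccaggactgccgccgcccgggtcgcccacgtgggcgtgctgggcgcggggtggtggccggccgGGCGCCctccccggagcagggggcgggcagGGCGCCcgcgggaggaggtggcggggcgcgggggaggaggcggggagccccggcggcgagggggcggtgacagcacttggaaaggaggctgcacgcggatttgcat
SMAD6 (chr15:66701986-66702235, plus strand): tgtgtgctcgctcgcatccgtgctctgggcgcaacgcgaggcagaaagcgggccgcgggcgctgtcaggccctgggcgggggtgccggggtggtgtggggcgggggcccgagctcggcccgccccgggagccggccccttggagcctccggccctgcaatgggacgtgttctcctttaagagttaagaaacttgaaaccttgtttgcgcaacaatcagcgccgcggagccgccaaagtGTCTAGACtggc
SMAD6 held GTCTAGAC with its first base 12 bases before the start site, a motif that 0.176% of 27326 promoters of the same length hold. It was the only member with it in the windows searched. SMAD3 held GGCGCC at 2 places, and so did SMAD1, with 1 place each in SMAD2 and SMAD4, where 16.1% of promoters hold it. The windows of SMAD2 and SMAD4 hold 114 and 113 exonic bases. Shares over all promoters use the first listed window of each gene, whereas a member's window is that nearest its principal transcript's start, so the 2 are not chosen alike. CAGAC, which does not overlap GTCTAGAC, was found in SMAD7 and SMURF1 and is held by 37.8% of promoters. The E-box letters CANNTG, to which basic helix-loop-helix factors bind, were found in 5 of 10 members, SMAD3, SMAD5, SMAD7, SMAD9 and SMURF2, against 62.2% of promoters. A match is a description of these letters, and the windows of SMAD1 and SMAD7 lie wholly within exons of GENCODE 29. The start site of the SMAD7 window, on the minus strand, lies at -1087 bases in chromosome coordinates from its principal transcript's start. The bases before that transcript's start were not searched.

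Upstream of the SMADs, the receptors were spread around the median gene. Of 14 receptor genes 8 were above the minimum, of which 0 were 2-fold higher or more and 1 was 2-fold lower or more as deposited (6.24% and 19.0% of all genes). The median log2 fold was -0.49 as deposited and 0.40 after the GC correction, which turned its direction and left 0 genes 2-fold apart. BMPR1A, a type I BMP receptor, was the lower one, at 5.25 FPKM in the ATOH8 and 12.2 FPKM in the vector library (-0.72 relative to the median gene and -0.25 after the GC correction). The betaglycan gene TGFBR3 was at 1.48 and 3.85 FPKM (-0.61), whereas the type I receptors ACVR1B (14.5 FPKM in the ATOH8 and 11.2 FPKM in the vector library) and ACVR1 (11.1 and 8.64 FPKM) stood at 0.70 and 0.69. Among receptors, the authors' deposited table marked BMPR1A down and ENG up, where it marked 10.2% and 4.33% of all identifiers. ENG was below the minimum, at 0.596 FPKM in the ATOH8 and 0.0385 FPKM in the vector library.

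Genes whose products act on SMADs directly were mixed, and most of the 2-fold differences among them were not kept after the GC correction. Of 14 nuclear partners and co-repressors, 10 were above the minimum, 0 were 2-fold higher and 3 were 2-fold lower (6.24% and 19.0% of all genes), with a median log2 fold of -0.45. Relative to the median gene 2 were 2-fold lower, and after the GC correction 1 was, SNW1, with a median of -0.08. SNW1, a SKI-interacting splicing factor, was at 14.7 FPKM in the ATOH8 and 44.3 FPKM in the vector library, and the co-repressor NCOR1 at 14.8 and 40.4 FPKM, or -1.17 and -1.03 relative to the median gene. The SMAD co-repressors SKI (8.40 FPKM in the ATOH8 and 5.64 FPKM in the vector library) and TGIF2 (4.53 and 3.05 FPKM) stood at 0.86 and 0.81. Of 15 anchors, traffic factors and phosphatases, 14 were above the minimum, 1 was 2-fold higher and 5 were 2-fold lower (6.24% and 19.0% of all genes), with a median log2 fold of -0.32. The lower ones numbered 2 relative to the median gene and 0 after the GC correction, although the list's median stayed low on that scale, at -0.38. CTDSP2, a nuclear phosphatase that acts on SMADs, was the higher one, at 43.4 FPKM in the ATOH8 and 18.3 FPKM in the vector library. PPM1A, another SMAD phosphatase, was at 5.23 and 16.45 FPKM, the endosomal anchor ZFYVE16 at 1.98 and 8.51 FPKM, and the SMAD3 exporter XPO4 at 1.36 and 4.99 FPKM. After the GC correction PPM1A stood at -0.42, ZFYVE16 at -0.59 and XPO4 at -0.34, and CTDSP2 remained 2-fold higher at 1.25.

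The wider ubiquitin machinery was likewise spread. Of 19 ligases, adaptors and deubiquitinases, 18 were above the minimum, 0 were 2-fold higher and 4 were 2-fold lower as deposited, a share near the 19.0% of all genes, with a median log2 fold of -0.32. Relative to the median gene 3 were 2-fold lower. After the GC correction 1 was 2-fold lower, UCHL5 at -1.13, and 1 was 2-fold higher, NDFIP1, an adaptor of NEDD4-family ligases, at 1.48. UCHL5, a deubiquitinase that binds SMAD7, was at 5.76 FPKM in the ATOH8 and 30.9 FPKM in the vector library, or -1.88 relative to the median gene. NEDD4, a HECT ligase of the same family as the SMURFs, was at 5.57 and 20.1 FPKM (-1.32), and USP15, a deubiquitinase of receptors and SMADs, at 2.95 and 11.4 FPKM (-1.29). After the GC correction NEDD4 stood at -0.68 and USP15 at -0.60. HECW1, another HECT ligase, was at 9.33 FPKM in the ATOH8 and 6.66 FPKM in the vector library (0.79). The authors' deposited table marked 3 of the 18 down and 0 up, where it marked 10.2% and 4.33% of all identifiers.

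Genes known as targets of SMADs had higher folds than most SMAD genes. These lists were chosen with earlier results of these data known, so their counts beside the shares of all genes are no support. Of 11 targets of the TGF-beta arm, 10 had a value above the minimum, and 6 were at least 2-fold higher and 0 lower (6.24% and 19.0% of all genes). All 10 lay above the median gene, where 47.0% of all genes lay below it. Their median log2 fold was 1.33 against -0.30 for all genes. TGFBI, a matrix protein gene, was at 1388 FPKM in the ATOH8 and 331 FPKM in the vector library, COL1A1, of type I collagen, at 12.2 and 2.16 FPKM, and CDKN1A, a cell cycle inhibitor that p53 also controls, at 194 and 32.0 FPKM. TAGLN had the smallest fold of the 10, at 2.02 FPKM in the ATOH8 and 2.002 FPKM in the vector library, and stood at -0.09 after the GC correction. Of 11 targets of the BMP arm, 7 were above the minimum, and 3 were at least 2-fold higher and 0 lower as deposited (6.24% and 19.0% of all genes). Their median log2 fold was 0.62. That median was 0.32 with no minimum and 0.31 with a pseudocount of 5. These 3 were ID3 (274 FPKM in the ATOH8 and 108 FPKM in the vector library), ID1 (459.5 and 224 FPKM) and BMP2 (2.21 and 0.401 FPKM). BMP2 passed the minimum only through the ATOH8 library, where it was high. BMP2 counts among the genes at least 2-fold higher and raises this list's medians, as deposited and after the GC correction. It is therefore no support for a higher list, and the medians were not recomputed without it. MSX2, a homeobox gene, was at 4.05 and 2.29 FPKM. After the GC correction the medians were 1.14 for the TGF-beta and 0.89 for the BMP targets, with 6 and 2 genes at least 2-fold higher, where 8.33% of all genes were. The 2 were ID3 and BMP2, while ID2 (-0.0045) and MSX1 (-0.23) were not above 0 on that scale. As deposited, ID2 (-0.04) and MSX1 (-0.06) were also below 0. Phosphorylation of SMAD proteins was not measured.

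**Figure D5:**
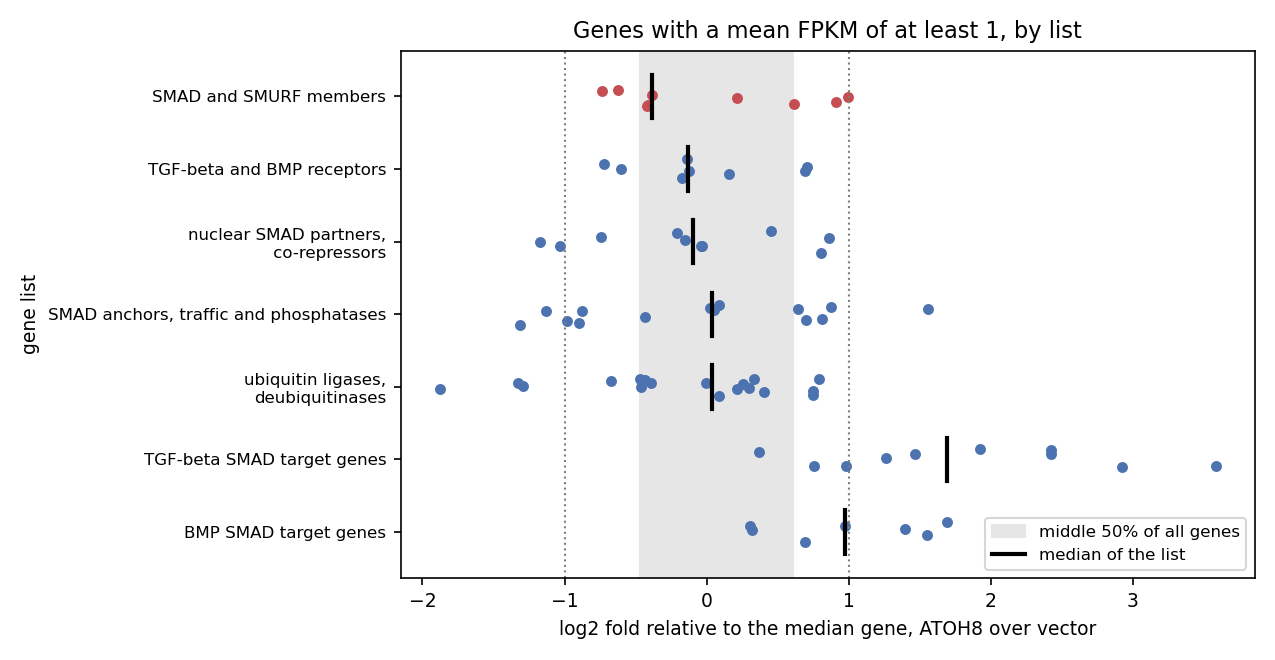
Log2 fold relative to the median gene for each gene above the minimum mean of 1 FPKM, by list, with a bar at each list's median and a band for the interquartile range of all genes. The members' median is -0.39, and the 10 TGF-beta and 7 BMP target genes all lie right of 0, where 47.0% of all genes lie left of it. As deposited, ID2 and MSX1 of the BMP list were below 0, at -0.04 and -0.06. BMP2, also of that list, passed the minimum only through the ATOH8 library. The lists were chosen with earlier results of these data known.

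Genes that matched the pattern of 2 members most closely were sought by the distance between log2(FPKM + 1) values over the 2 libraries. For SMAD7 the nearest 3 were GADD45A (14.1 FPKM in the ATOH8 and 8.75 FPKM in the vector library), PTPN6 and PLD2. For SMURF2 they were RP11-159D12.2 (3.14 and 7.80 FPKM), RBM45 and KLHL42. With 2 values per gene, such a match says only that both levels are close.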

How the data were processed

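RNA was extracted from A549 cells with Trizol and sequenced as standard Illumina libraries, per the labels' protocols, with 1 library per group. In the submitters' processing notes stand Cufflinks 2.2.1, HISAT2, CASAVA and hg38 (GRCh38), with no role for any; annotation, strand setting and filters are not stated there. FPKM were deposited by the authors, in a table for each library. In another table the authors deposited their comparison of the libraries as q-values, p-values and log2 ratios; 2 further columns of it, whose names fit no label, were left out. FPKM scale with each library's total, so abundant transcripts lower the rest: mitochondrial transcripts without MT-CO1 held 24.2% of the summed FPKM in the ATOH8 and 14.4% in the vector library.

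The tables were joined by gene identifier, rows sharing a symbol were summed, and log2 folds used a pseudocount of 1, so low genes appear to change less than they do. The minimum was a mean of 1 FPKM. GC content came from GENCODE 29 (99.8% of genes matched), and the correction was a lowess curve with a fraction of 0.3 (Python 3.11.15, statsmodels 0.14.6). Promoters are RefSeq's, matched by symbol for 10 of 10 members. The arithmetic was tested on simulated data. Read depth is not stated, so no counting interval is given. The commonest product of FPKM and length in kilobases of long single-transcript genes was taken as a rough guide to 1 fragment. It lay at 0.040 to 0.045 in the ATOH8 and 0.035 to 0.040 in the vector library, against 1.02 and 0.362 for SMAD9.

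The named genes were ATOH8, the 10 members, the 4 genes of each list furthest from the median gene and the 3 nearest to the highest and lowest member; others were named after their values were seen, and some items are not reported here. The members and lists were chosen with earlier results of these data known.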

Additional observations from a re-analysis of the deposited data

How the results depend on the processing

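Each result had 1 library per group, so no replicate could be left out. No paired analysis was possible because each group has 1 library. The number of members at least 2-fold higher was 0 in every setting tried. The number at least 2-fold lower was 1 as deposited, 2 with a pseudocount of 0.1, when SMAD1 (-1.20) joined SMURF2, and 0 with a pseudocount of 5, centring on the median gene, upper quartile scaling, leaving out mitochondrial genes, and either GC correction. SMURF2 stood at -0.66, -0.74, -0.78, -0.996, -0.18 and -0.21 in those 6 settings. SMAD3 (0.51 to 0.93), SMAD7 (0.48 to 0.99), SMURF1 (0.19 to 0.62), SMAD1 and SMURF2 kept their sign in 9 of 9 alternatives. SMAD2, SMAD4 and SMAD5 kept theirs in 7, the exceptions being both GC corrections, and SMAD6 in 6, being above 0 when centred, scaled to the upper quartile or without mitochondrial genes. A pseudocount of 0.1 or 5 cannot change a sign. Taking the highest row of a shared symbol in place of the sum changed no member's fold. The rescalings and the centring only raised SMAD3, SMAD7 and SMURF1, so for these only the GC corrections could have turned the sign. SMAD9 was left out of the folds by the minimum mean of 1 FPKM, and read depth is not stated.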
